A study of Mus musculus with 24 samples.

Results

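The circadian clock genes examined here were Per1, Per2, Per3, Arntl, Clock, Cry1, Cry2, Nr1d1, Nr1d2 and Dbp. They were taken by gene symbol from the read count table of a bulk RNA sequencing experiment on mouse hippocampus, and all 10 were found among 46983 genes. All 10 also passed the filter on low counts, which kept 16209 genes, so no member was lost to it. The study asked whether FKBP51, a co-chaperone of the glucocorticoid receptor encoded by Fkbp5, alters the lasting consequences of early life stress (ELS). The 24 adult female mice on a C57BL/6 background, whose behavioural testing began at 6 months of age, fell into 4 groups of 6. Fkbp5lox/lox mice carried floxed Fkbp5 alleles without Cre and served as wild-type littermates. Fkbp5Nex mice carried the same floxed alleles together with Nex-Cre, which per the study's methods deletes Fkbp5 from glutamatergic forebrain neurons but not from the dentate gyrus, while interneurons and glia keep the gene. In each genotype, litters were raised in the first postnatal days either under a control condition or with limited bedding and nesting material as ELS. RNA came from punches of dorsal and ventral hippocampus, frozen after decapitation. The hour of sacrifice, which sets where a clock gene stands in its daily cycle, is not given in the sources used here, and neither is the estrous stage. Its part in the values below was not tested.

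The molecular clock is a feedback loop in nearly every cell. CLOCK and BMAL1, the product of Arntl, bind E-boxes and switch on the Per and Cry genes, whose proteins return to the nucleus and repress CLOCK and BMAL1. The nuclear receptors REV-ERB alpha and beta, encoded by Nr1d1 and Nr1d2, are switched on by the same E-boxes and repress Arntl through ROR elements, while Dbp, an output gene, encodes an activator that binds D-boxes. Across the day Arntl therefore runs roughly opposite to Dbp and the Nr1d and Per genes. In the hippocampus the loop is linked to daily rhythms in excitability and memory, and Per1 is also a target of the glucocorticoid receptor and of neuronal activity.

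These elements can be read in the DNA upstream of the members. RefSeq promoters (GRCm38.p6, 250 bases before to 50 after a start site) matched 9 of the 10 genes, with 13 windows, and Per2 had no entry. Both strands were searched for the E-box CACGTG, the related E-prime box CACGTT, the D-box TTATGTAA or TTACGTAA, the ROR element TAGGTCA or TGGGTCA, the cAMP response element TGACGTCA and the glucocorticoid receptor core ACANNNTGT. The cAMP element's first bases, TGACG, were also counted as a partial element that lies within the whole one. The windows below are those with an E-box (Per1 and Cry1), an E-prime box next to the start site (Nr1d1), D-boxes (Per3) or a ROR element (Arntl), together with Nr1d2, the member with the smallest p-value in the group comparisons. Capitals mark the matches, other than the partial cAMP element.
Per1 (chr11:69098699-69098998, plus strand): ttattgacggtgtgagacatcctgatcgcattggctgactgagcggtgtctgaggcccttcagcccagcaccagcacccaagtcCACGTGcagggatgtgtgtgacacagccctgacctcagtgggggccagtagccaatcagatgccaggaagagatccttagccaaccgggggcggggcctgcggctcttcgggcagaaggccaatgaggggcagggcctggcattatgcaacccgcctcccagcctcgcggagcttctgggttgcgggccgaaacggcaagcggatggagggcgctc
Cry1 (chr10:85185005-85185304, minus strand): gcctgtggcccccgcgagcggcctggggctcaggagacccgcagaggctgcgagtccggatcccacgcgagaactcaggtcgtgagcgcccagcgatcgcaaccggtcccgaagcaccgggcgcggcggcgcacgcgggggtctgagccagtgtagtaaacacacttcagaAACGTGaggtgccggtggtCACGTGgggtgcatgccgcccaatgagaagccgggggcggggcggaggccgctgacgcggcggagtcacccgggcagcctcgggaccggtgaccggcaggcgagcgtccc
Nr1d1 (chr11:98775328-98775627, minus strand): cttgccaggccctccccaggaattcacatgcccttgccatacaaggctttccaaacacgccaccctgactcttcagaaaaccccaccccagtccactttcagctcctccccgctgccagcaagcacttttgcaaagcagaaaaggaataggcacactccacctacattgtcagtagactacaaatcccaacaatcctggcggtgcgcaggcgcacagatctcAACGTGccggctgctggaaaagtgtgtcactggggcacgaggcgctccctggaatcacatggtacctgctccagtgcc
Per3 (chr4:151044616-151044915, minus strand): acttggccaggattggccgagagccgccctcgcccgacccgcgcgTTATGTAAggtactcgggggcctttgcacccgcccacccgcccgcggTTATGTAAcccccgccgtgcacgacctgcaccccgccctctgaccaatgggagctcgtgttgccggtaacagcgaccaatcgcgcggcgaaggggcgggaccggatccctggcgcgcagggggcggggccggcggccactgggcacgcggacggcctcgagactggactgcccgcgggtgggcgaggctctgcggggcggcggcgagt
Arntl (chr7:113207261-113207560, plus strand): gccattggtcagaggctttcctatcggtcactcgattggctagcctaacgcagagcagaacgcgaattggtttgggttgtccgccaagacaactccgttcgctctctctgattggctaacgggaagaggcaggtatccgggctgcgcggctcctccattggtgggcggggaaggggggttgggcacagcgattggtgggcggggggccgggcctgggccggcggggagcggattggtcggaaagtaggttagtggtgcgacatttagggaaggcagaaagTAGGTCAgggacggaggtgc
Nr1d2 (chr14:18239057-18239356, minus strand): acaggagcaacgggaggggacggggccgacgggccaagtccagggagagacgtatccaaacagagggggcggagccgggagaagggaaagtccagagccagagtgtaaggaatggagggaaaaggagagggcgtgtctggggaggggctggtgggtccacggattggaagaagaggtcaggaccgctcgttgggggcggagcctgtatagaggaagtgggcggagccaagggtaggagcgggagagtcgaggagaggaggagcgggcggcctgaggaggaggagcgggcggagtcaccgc
Counted from the start site, the Per1 E-box lay at -166 and the Cry1 E-box at -60, with an E-prime box, read as AACGTG on the gene's strand, at -79. In Nr1d1 the E-prime box stood at -28, and Cry2, not shown, had one at -166. Per3 held 2 D-boxes, at -205 and -158, and the Arntl window a ROR element 31 bases after the start. Among all 32851 RefSeq promoters of this length, 7.15% held the E-box, 4.68% the E-prime box, 1.06% the D-box and 6.45% the ROR element. The partial cAMP element was present in Per1, Cry1 and Cry2 and in 20.8% of all promoters, and neither the whole cAMP element nor the glucocorticoid receptor core was found in any member window (1.79% and 6.85% of all promoters). For Nr1d2, Dbp and Clock none of these letters occurred in the windows, which says nothing about elements elsewhere in the genes.

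Each mouse contributed between 18347283 and 26555623 gene-assigned reads, so a member received from 186 (Cry1) to 3271 (Cry2) reads per mouse. Levels are given as CPM (reads of a gene scaled to a common library size), scaled between mice by edgeR's TMM factors. Counting error alone allowed a coefficient of variation of 2.05% for Cry2 to 6.71% for Cry1, below the spread between mice for every member. The deleted gene followed the labels. Fkbp5 lay between 47.7 and 63.4 CPM in the 12 Fkbp5lox/lox mice and between 8.71 and 26.5 CPM in the 12 Fkbp5Nex mice, with a log2 difference of -2.05 under control rearing and -2.01 after ELS (adjusted p = 4.8e-09 and 6.9e-09, edgeR). The 5 pyramidal neuron markers were present in all mice, at a summed 4239 to 5983 CPM. The 4 dentate granule cell markers summed to 131 to 746 CPM, the 3 choroid plexus markers that passed the filter to 13.8 to 4495 CPM and the 6 thalamic markers to 46.5 to 345 CPM, so markers of neighbouring regions differed widely between punches. In bulk tissue, fewer cells of a type and less RNA per cell cannot be told apart.

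All members were expressed, and they differed in level. Per kilobase of annotated exon (GENCODE M21), the REV-ERB beta gene Nr1d2 and the repressor gene Cry2 stood at the top with 18.02 ± 1.78 and 17.7 ± 1.05 CPM per kb (SD over 24 mice). Those 2 did not differ beyond their spread, since Nr1d2 was the higher in only 14 of 24 mice. Nr1d1 followed at 15.3 ± 2.34 and was below Cry2 in 22 of 24 mice. A gap then separated these 3 genes from the rest. In all 24 mice Nr1d1 exceeded Clock, which had 8.01 ± 0.67 CPM per kb, and the ranges did not overlap. This gap depends on the scaling by exon length, with 13727 bases for Clock and 3077 for Nr1d1. In CPM the mean of Clock (109.9) was above that of Nr1d1 (46.97) and close to that of Cry2 (111.7). Clock and Per1 (7.61 ± 0.82) were in this order in 13 of 24 mice, and Dbp (6.90 ± 1.37) lay below Per1 in 18. Per3 (5.57 ± 1.07), Per2 (4.996 ± 0.61) and Arntl (4.33 ± 0.43) came next, with neighbours ordered the same way in 17 to 19 of 24 mice. Cry1, the other cryptochrome, was lowest at 3.15 ± 0.33 and below Arntl in 23 of 24 mice. These levels divide reads by the exons of all annotated transcripts, and they count as uncertain for genes that share exon bases with an opposite gene, because the strand setting of the counting is not given in the sources used here. Such overlaps were Nr1d1 with Thra (263 bases), Dbp with Sphk2 (539), Cry2 with D930015M05Rik (295) and Arntl with Gm45355 (33). Per1, Per2, Cry1 and Nr1d2 overlapped no other annotated gene.

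**Figure D1:**
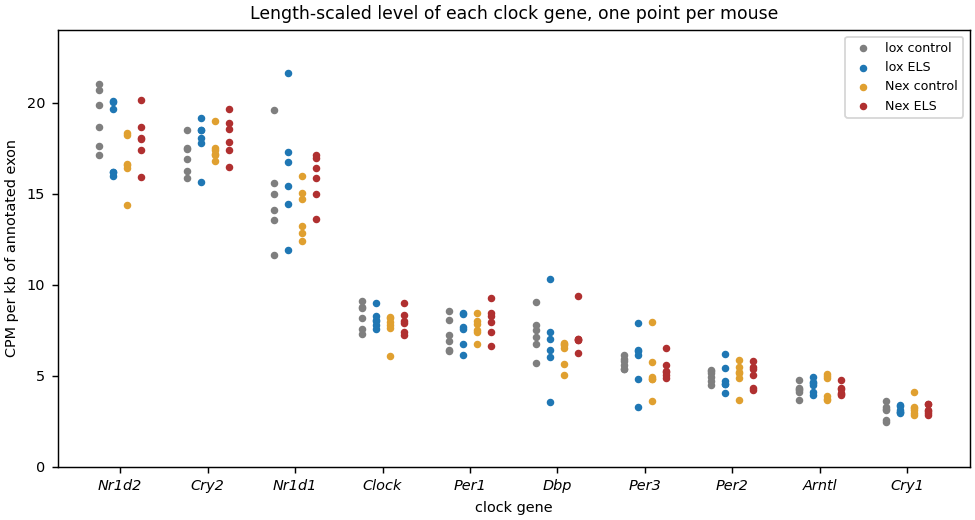
Level of each clock gene in CPM per kb of annotated exon (y axis) for the 24 mice (points, coloured by group), with genes ordered by mean on the x axis. Nr1d2, Cry2 and Nr1d1 lie above the other 7 genes in every mouse, with no overlap between Nr1d1 and Clock.

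The members also varied to different extents between mice of the same group. Per3, a period gene with a weaker part in the loop than its relatives, and Dbp had the widest spread, with a within-group coefficient of variation of 20.2% each. Nr1d1 followed at 15.2%, and Cry2 was the steadiest at 5.84%, with Clock at 8.37% and Nr1d2 at 9.26%. The remaining 4 members lay between 10.4% (Arntl) and 12.9% (Per2). The median over the members was 10.99%, beside 9.48% over the 8841 genes with a mean between 10 and 150 CPM. From the lowest to the highest mouse, Dbp spanned 2.90-fold, Per3 2.42-fold and Cry2 1.25-fold. The 5 surrogate variables, estimated by svaseq from all genes to catch differences between mice that the groups do not explain, took up 72.4% of the within-group variance of Per3. They took up 32.4% of that of Dbp and 29.6% of that of Cry2, with a median of 56.4% for members and 56.5% for all genes tested.

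**Figure D2:**
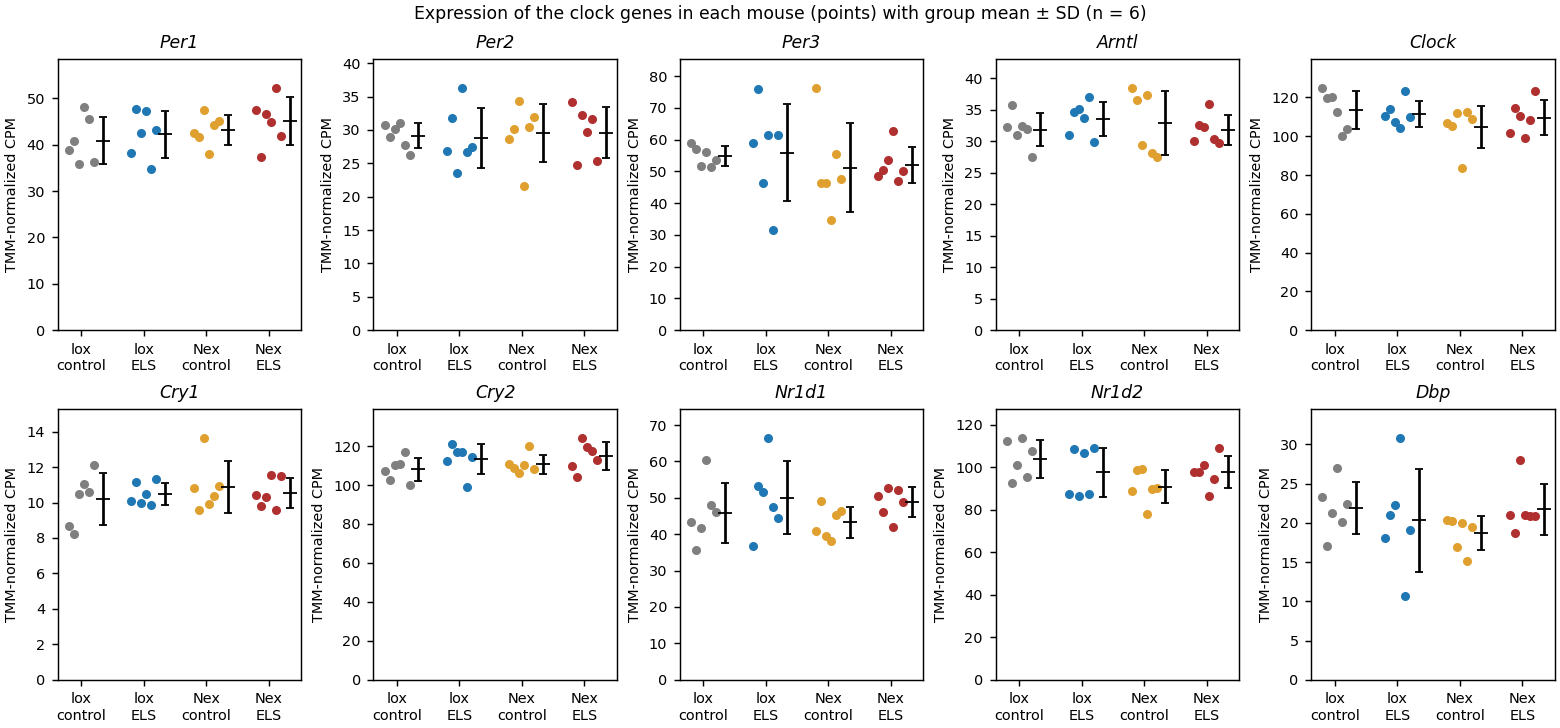
TMM-normalized CPM of each clock gene in every mouse (points) by group, with the group mean ± SD beside them (n = 6 per group, y axes from 0). The groups overlap for every gene, and Per3 and Dbp spread most widely in the Fkbp5lox/lox ELS mice among their Fkbp5lox/lox groups.

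Across the comparisons, no member was called differentially expressed. This held for ELS in Fkbp5lox/lox mice, ELS in Fkbp5Nex mice, the genotype difference under control rearing, the genotype difference after ELS, and the interaction, taken as the ELS difference in Fkbp5lox/lox minus that in Fkbp5Nex mice. The test was edgeR's quasi-likelihood test with the surrogate variables, over all genes, at a false discovery rate of 0.02. Over all genes tested it called 0% of genes tested for ELS in either genotype and for the interaction, 0.074% for genotype under control rearing and 0.0123% for genotype after ELS. The smallest adjusted p of any member was 0.399. edgeR without surrogate variables and DESeq2 with them likewise called 0 of 10 members in each comparison. Of all genes, the first of these fits called 0.0123% for genotype under each rearing and 0% in the other comparisons. DESeq2 called 0.34% for genotype under control rearing and at most 0.0247% in the others. At an unadjusted p below 0.05, 1 member of 10 passed for ELS in Fkbp5lox/lox mice (4.98% of all genes did), 0 for ELS in Fkbp5Nex mice (2.76%), 1 for genotype under control rearing (8.78%), 0 for genotype after ELS (6.3%) and 1 for the interaction (3.95%). In all 3 cases it was Nr1d2, so that each of these counts stands at 1 member beside a background of 3.95% to 8.78%.

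Of the 50 fitted differences, 47 had a 95% interval that included 0, and 47 had an interval lying wholly between -0.5 and 0.5 on the log2 scale. The narrowest interval was that of Cry2, ± 0.10 for genotype under control rearing, and the widest that of Dbp, ± 0.46 for the interaction. For ELS the median over the 10 members was -0.06 in Fkbp5lox/lox mice (0.003 over all genes) and 0.01 in Fkbp5Nex mice (0.003 over all genes). For genotype it was 0.006 under control rearing (-0.001 over all genes) and 0.05 after ELS (-0.003 over all genes). For the interaction it was -0.03 (0.0003 over all genes). In the order given, 3, 6, 5, 7 and 4 of the 10 members had a positive difference, beside 48.9% to 52.0% of all genes. Without surrogate variables the member median changed sign for ELS in Fkbp5lox/lox mice, to 0.03, and for genotype under control rearing, to -0.03.

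**Figure D3:**
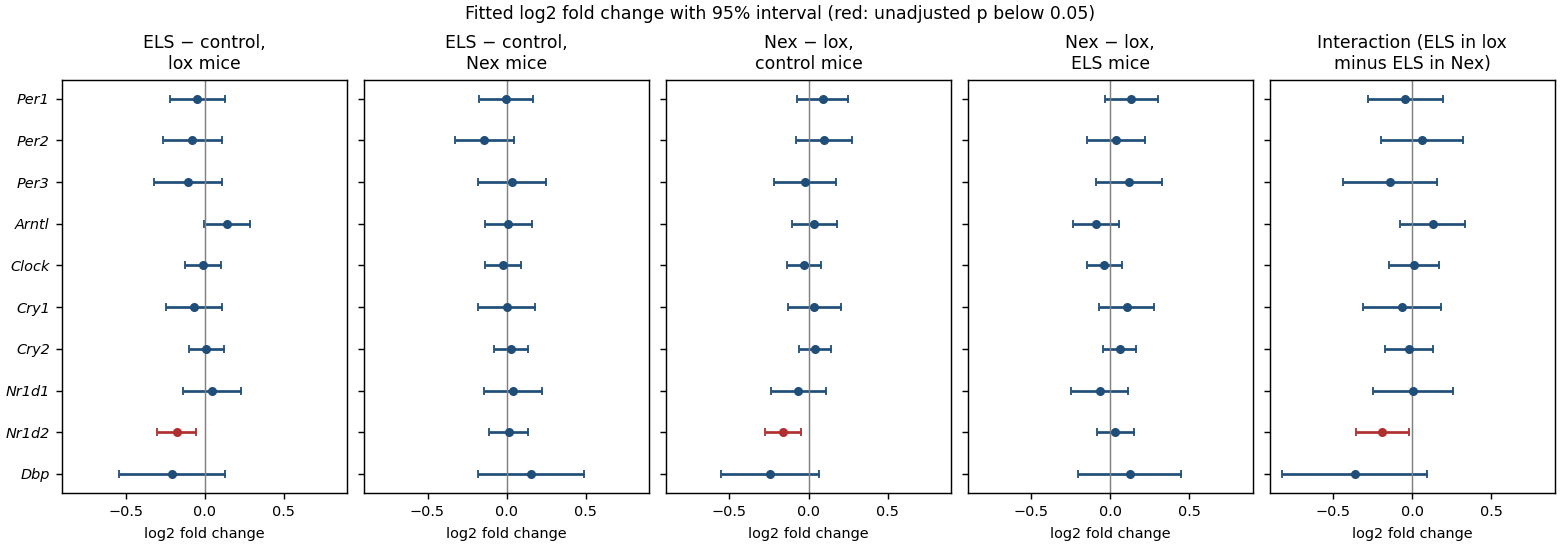
Fitted log2 fold change (x axis) with its 95% interval for each clock gene (rows) in the 5 comparisons (panels), from the edgeR fit with surrogate variables. Nr1d2, in red, is the gene with an unadjusted p below 0.05, in 3 panels, and Dbp has the widest intervals.

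Nr1d2 (ENSMUSG00000021775, chr14:18204054-18239127 on the minus strand in GRCm38) encodes REV-ERB beta, which represses Arntl together with REV-ERB alpha. In Fkbp5lox/lox control mice it was at 92.7, 95.5, 101.1, 108, 112 and 114 CPM. After ELS the values in that genotype were 86.4, 87.5, 87.6, 106.5, 109 and 109 CPM, so 3 mice lay below every control and 3 within the control range. Fkbp5Nex control mice had 78.0, 88.8, 89.9, 90.02, 98.6 and 99.4 CPM, with 4 of 6 below the lowest Fkbp5lox/lox control and none above that group's mean. Fkbp5Nex ELS mice had 86.3, 94.3, 97.5, 97.7, 101 and 109 CPM, and overlapped both their controls and the Fkbp5lox/lox ELS mice. The Fkbp5lox/lox controls were thus the highest group, at 104 ± 8.79 CPM (SD, n = 6), and the Fkbp5Nex controls the lowest, at 90.8 ± 7.81, with both ELS groups between them at 97.6 ± 11.4 and 97.7 ± 7.55.

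In the edgeR fit the Nr1d2 difference was -0.18 ± 0.06 log2 units (SE, unadjusted p = 0.00656, adjusted p = 0.938) for ELS in Fkbp5lox/lox mice. For genotype under control rearing it was -0.16 ± 0.05 (unadjusted p = 0.00834, adjusted p = 0.399), and for the interaction -0.19 ± 0.08 (unadjusted p = 0.0281, adjusted p = 0.999). The other 2 differences of Nr1d2 were 0.01 for ELS in Fkbp5Nex mice and 0.03 for genotype after ELS. On the levels without surrogate variables, the exact two-sided permutation test over all divisions of the 12 mice gave p = 0.0260 for genotype under control rearing (-0.19 log2 units) and p = 0.297 for ELS in Fkbp5lox/lox mice (-0.09). This exact test was run on the members only, so its counts have no share over all genes beside them. Only the first of these p-values was below 0.05 among the 40 member comparisons so tested. No comparison left the groups without overlap, and 0.00216 is the smallest p the design allows. Thus the ELS difference of Nr1d2 in Fkbp5lox/lox mice passed an unadjusted 0.05 with surrogate variables only, since edgeR without them gave -0.09 (unadjusted p = 0.246). The same was so for its interaction, which was -0.20 without them (unadjusted p = 0.0796), while genotype under control rearing passed in both fits (-0.19 without them, unadjusted p = 0.0167).

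Dbp (ENSMUSG00000059824, chr7:45705088-45710203, plus strand), the D-box activator whose transcript is among the most strongly cycling in many tissues, had the largest fitted difference of the members in 4 of the 5 comparisons, the exception being genotype after ELS, and the widest interval in all 5. Fkbp5lox/lox controls had 17.01, 20.2, 21.3, 22.4, 23.3 and 27.04 CPM. With ELS the same genotype spread from 10.6 to 30.9 CPM, with 18.1, 19.1, 21.0 and 22.3 between, so the lowest and the highest mouse of the whole experiment were in this group. Fkbp5Nex controls had 15.2, 16.9, 19.5, 19.98, 20.3 and 20.3 CPM. The Fkbp5Nex ELS mice had 18.7, 20.8, 20.9, 21.0, 21.0 and 28.1 CPM, and 5 of 6 were above the highest control of their genotype.

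The Dbp difference for ELS was -0.21 ± 0.16 in Fkbp5lox/lox and 0.15 ± 0.16 in Fkbp5Nex mice, and the interaction -0.36 ± 0.22 (edgeR, unadjusted p = 0.114). For genotype it was -0.24 ± 0.15 under control rearing and 0.12 ± 0.16 after ELS. Exact permutation tests gave p = 0.0671 for ELS in Fkbp5Nex mice (0.21 log2 units without surrogate variables) and p = 0.0866 for genotype under control rearing (-0.22). Each difference was thus within the spread between mice. Without Fkbp5lox/lox ELS mouse 72, the ELS difference of Dbp in that genotype became 0.01, the genotype difference after ELS -0.09 and the interaction -0.16.

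The other REV-ERB gene, Nr1d1 (ENSMUSG00000020889, chr11:98767932-98775333, minus strand), was at 45.9 ± 8.24 CPM in Fkbp5lox/lox controls and 49.99 ± 10.03 after ELS. In Fkbp5Nex mice it was at 43.2 ± 4.36 under control rearing and 48.8 ± 4.15 after ELS. Both ELS means exceeded their controls, by 0.12 (exact permutation p = 0.468) and 0.17 log2 units (exact permutation p = 0.0563) without surrogate variables, and in the Fkbp5Nex mice 3 of 6 ELS values lay above all controls. In the edgeR fit with surrogate variables these shrank to 0.05 and 0.04. Nr1d1 thus gave no difference beyond the spread between mice.

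Arntl (ENSMUSG00000055116, chr7:113207465-113314126, plus strand), which encodes the activator BMAL1, had group means between 31.8 ± 2.36 CPM (Fkbp5Nex ELS) and 33.6 ± 2.69 CPM (Fkbp5lox/lox ELS). Its ELS difference in Fkbp5lox/lox mice was 0.14 ± 0.07 (edgeR, unadjusted p = 0.0616). Of the 10 members, 3 were positive in this comparison: Arntl, Nr1d1 (0.05) and Cry2 (0.009). The others, Nr1d2 and Dbp among them, were negative. Without surrogate variables 6 of the 10 were positive. In Fkbp5Nex controls the 6 mice split into 27.5, 28.2 and 29.4 CPM against 36.6, 37.4 and 38.5 CPM, which gave that group the widest spread of Arntl. Clock (ENSMUSG00000029238, chr5:76209868-76304792, minus strand), the partner of BMAL1, had means of 105 ± 10.9 to 114 ± 9.92 CPM, and its 5 differences lay between -0.04 and 0.01. Without surrogate variables the Clock differences ran from -0.11, for genotype under control rearing (exact permutation p = 0.201), to 0.06.

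The period genes hold the repressing arm of the loop. Per1 (ENSMUSG00000020893, chr11:69095217-69109960, plus strand) had means of 40.9 ± 5.01 CPM in Fkbp5lox/lox controls and 42.2 ± 5.08 after ELS and of 43.2 ± 3.21 in Fkbp5Nex controls and 45.1 ± 5.10 after ELS. Its differences were 0.09 for genotype under control rearing and 0.13 after ELS (edgeR, unadjusted p = 0.115), and for ELS -0.05 and -0.004. The sign of these ELS values runs against the group means, and without surrogate variables they were 0.05 and 0.06. Per2 (ENSMUSG00000055866, chr1:91415982-91459324, minus strand) stayed between 28.8 ± 4.51 and 29.6 ± 3.84 CPM in the group means. Per3 (ENSMUSG00000028957, chr4:151003652-151044665, minus strand) had means between 51.1 ± 13.99 and 55.9 ± 15.2 CPM. Its spread was uneven: the Fkbp5lox/lox controls lay between 51.4 and 59.0 CPM, while the ELS mice of that genotype ran from 31.5 to 76.0 CPM and the Fkbp5Nex controls from 34.6 to 76.2 CPM.

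The cryptochromes pair with the PER proteins. Cry2, the steadiest member (ENSMUSG00000068742, chr2:92403646-92434043, minus strand) had group means from 108 ± 6.07 to 115 ± 7.18 CPM, and its 5 differences lay between -0.02 and 0.06. Cry1 (ENSMUSG00000020038, chr10:85131700-85185064, minus strand) had means from 10.2 ± 1.48 to 10.9 ± 1.46 CPM, with differences between -0.07 and 0.10.

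Among the other 18 genes of the clock network that were listed (the NPAS2 and BMAL2 partners, the ROR receptors, Bhlhe40 and Bhlhe41, Ciart, Nfil3, the Dbp relatives Tef and Hlf, and genes acting on PER and CRY proteins), all passed the filter and 0 were called in any of the 5 comparisons. At an unadjusted p below 0.05, 1 of the 18 passed for ELS in Fkbp5lox/lox mice, beside 4.98% of all genes. For ELS in Fkbp5Nex mice 1 passed (2.76% of all genes), and for genotype under control rearing 1 (8.78%). For genotype after ELS and for the interaction 0 passed (6.3% and 3.95%). The smallest p-values were those of 2 related E-box repressors. Bhlhe41 differed by 0.26 ± 0.09 for ELS in Fkbp5Nex mice (edgeR, unadjusted p = 0.00692, adjusted p = 0.9995), but by 0.02 without surrogate variables, with means of 22.7 ± 8.01 and 23.1 ± 6.01 CPM. Bhlhe40 differed by -0.21 ± 0.07 for genotype under control rearing (edgeR, unadjusted p = 0.0101, adjusted p = 0.417). Median differences of the 18 genes lay between -0.03 and 0.04.

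The members were then followed across individual mice, since mice of 1 group could differ in the state of the clock. Log2 CPM were centred on group means, Pearson's r and Spearman's rho were computed for the 45 pairs of members, and p-values came from 100000 permutations within groups, adjusted over the 45 pairs. Per1 and Per2 moved together: r was 0.65 (permutation p = 0.00057, adjusted p = 0.0257) and rho 0.70 (permutation p = 0.00035, adjusted p = 0.0158), and r was 0.62 when the 2 mice most distant from Per1's median were dropped. It was the only pair past an adjusted 0.05. With the surrogate variables regressed out, r of Per1 and Per2 was 0.48 (permutation, adjusted p = 0.251). Instead 3 other pairs passed: Per1 with Cry2 (r = 0.77), Per3 with Cry2 (0.62) and Cry2 with Dbp (0.63). The permutation made no allowance for the variables regressed out, and these 3 values were not followed with mice left out. Before the regression, leaving out Fkbp5lox/lox ELS mouse 72 took Per3 with Cry2 from 0.48 to 0.20 and Cry2 with Dbp from 0.53 to 0.24.

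Of all 45 pairs, 31 had a positive r, the median r was 0.22, and 11 had an unadjusted p below 0.05. Per1 with Cry2 (r = 0.62, permutation p = 0.00471, adjusted p = 0.106) and Per1 with Nr1d1 (r = 0.54, permutation p = 0.0161, adjusted p = 0.178) came next. The 2 REV-ERB genes had an r of 0.52, and Nr1d1 with Dbp, both driven from E-boxes, 0.54 (permutation, adjusted p = 0.178 for each). Fkbp5lox/lox ELS mouse 72 had the lowest Dbp, Per1, Per3 and Cry2 of the 24 mice. Without it r of Per1 with Cry2 was 0.51, while r of Nr1d1 with Dbp rose to 0.70. Leaving out mouse 72 and a Fkbp5Nex ELS mouse took r of Cry2 with Dbp from 0.53 to 0.22 and r of Per1 with Dbp from 0.47 to 0.22.

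Arntl, which runs opposite to Dbp across the day in a cycling tissue, had an r close to 0 with it here (r = -0.00018, rho = 0.24). Without mouse 72 r was 0.24, and leaving out 1 mouse changed its sign in 7 of 24 cases. The hours of sacrifice are not given, so this r cannot be set against the daily relation. The lowest r of Arntl was with Cry1 (-0.44, permutation p = 0.0535, adjusted p = 0.201), followed by Nr1d2 (-0.38). The log2 difference of Dbp minus Arntl lay between -1.07 and -0.13 in 23 mice and was -1.79 in mouse 72.

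**Figure D4:**
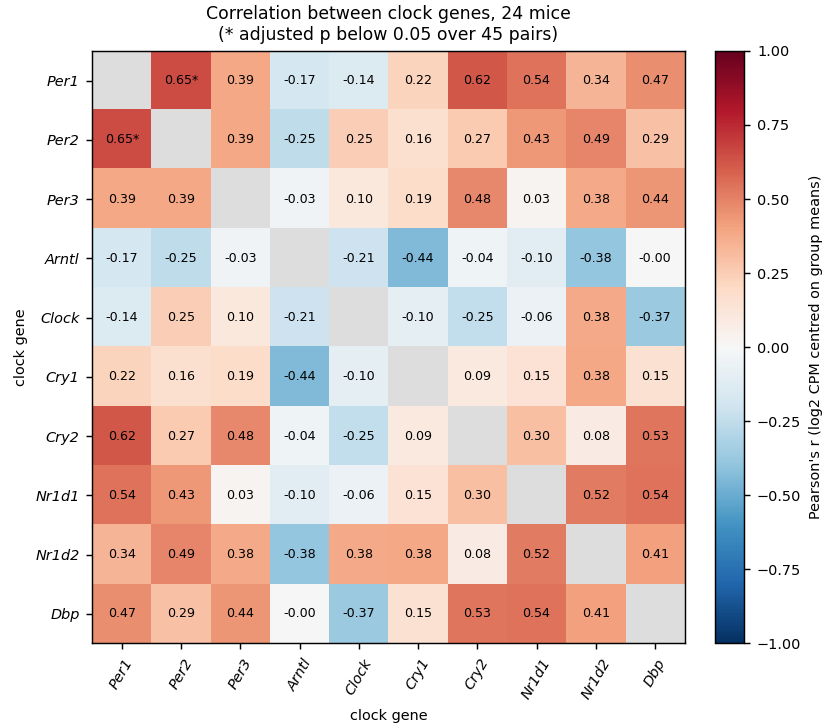
Pearson's r between each pair of clock genes over 24 mice, after centring log2 CPM on group means (colour scale from -1 to 1, value in each cell). Per1 with Per2, marked by an asterisk, is the pair past an adjusted p of 0.05, and the Arntl row is mostly negative or near 0.

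Per1 was set against 8 glucocorticoid receptor targets and 6 activity-regulated genes, since both inputs are known to drive it. None of the 14 relations passed an adjusted 0.05. The closest were Sgk1, a kinase gene induced by glucocorticoids, with r = -0.56 (rho = -0.58, permutation p = 0.0114 for r and 0.00798 for rho, adjusted p = 0.0795 and 0.112), and Nr4a1, an immediate early gene, with r = 0.55 (rho = 0.50, permutation p = 0.00895 and 0.01996, adjusted p = 0.0795 and 0.116). Both held their size after those 2 mice were dropped, at -0.54 and 0.57. Other glucocorticoid targets gave no common direction, from 0.43 for Zbtb16 to -0.13 for Cdkn1a, and Fkbp5 itself had an r of 0.16 over the 12 Fkbp5lox/lox mice. None of the 6 activity genes, nor of 6 temperature-responsive genes such as Cirbp and Hsph1, was called in any comparison. The smallest unadjusted p-values in these lists were 0.0420 for Npas4 (ELS in Fkbp5lox/lox mice, 0.54 ± 0.25, but 0.18 without surrogate variables) and 0.181 for Egr1 (ELS in Fkbp5Nex mice, 0.17 ± 0.12) among activity genes, by edgeR. Among temperature genes they were 0.0841 for Hsph1 (0.08 ± 0.04) and 0.121 for Hspa1b (0.20 ± 0.12), both for genotype under control rearing. Without surrogate variables, 1 of the 6 temperature genes passed an unadjusted 0.05 for genotype after ELS (edgeR), beside 4.47% of all genes. In the glucocorticoid list Fkbp5, the deleted gene, was the 1 gene of 8 that was called, in both genotype comparisons.

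Because markers of neighbouring regions differed between punches, each member was also set against the mean log2 CPM of 9 lists of cell type and region markers, an analysis added after the values had been seen. Of 90 relations, 1 passed an adjusted 0.05, that of Per3 with the 5 interneuron markers (r = -0.65, rho = -0.70, permutation p = 0.00055 and 0.00035, adjusted p = 0.0495 and 0.0315), and r was -0.49 after dropping the 2 mice most distant from the markers' median. Per3 also had an r of 0.73 with the 4 dentate granule cell markers (rho = 0.65, permutation p = 0.00228 and 0.00331, adjusted p = 0.103 and 0.149). That r fell to 0.51 without Fkbp5Nex control mouse 12 and Fkbp5lox/lox ELS mouse 8. These were the 2 mice with the highest Per3, 76.2 and 76.0 CPM, and their dentate markers summed to 559 and 746 CPM, the highest of their groups. The dentate markers differed by genotype as well: Prox1 (-0.68) and Dsp (-1.43) were called lower in Fkbp5Nex controls than in Fkbp5lox/lox controls, as were the choroid plexus markers Ttr (-3.76) and Clic6 (-2.32). None of these 4 calls was made without surrogate variables, where the differences were -0.50 for Prox1, -1.35 for Dsp, -0.97 for Ttr and -0.90 for Clic6 (edgeR, adjusted p = 0.992 for each). No marker of the other 7 lists was called by edgeR in any comparison. For ELS in Fkbp5lox/lox mice, however, the 6 thalamic markers were all positive, with a median of 0.29 with surrogate variables and 1.27 without them. At an unadjusted p below 0.05 (edgeR), 1 of the 6 passed with them and 5 without them, beside 4.98% and 2.76% of all genes. In that group the summed thalamic markers stood at 345 CPM in mouse 8 and 289 CPM in mouse 78. Its other mice lay between 100 and 125 CPM, close to the Fkbp5lox/lox controls at 71.9 to 118 CPM. Arntl had an r of 0.64 with the 5 microglia and -0.63 with the 5 oligodendrocyte markers (permutation, adjusted p = 0.196 and 0.186). Whether the makeup of a punch has a part in the levels of Per3 or Arntl was not tested.

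**Figure D5:**
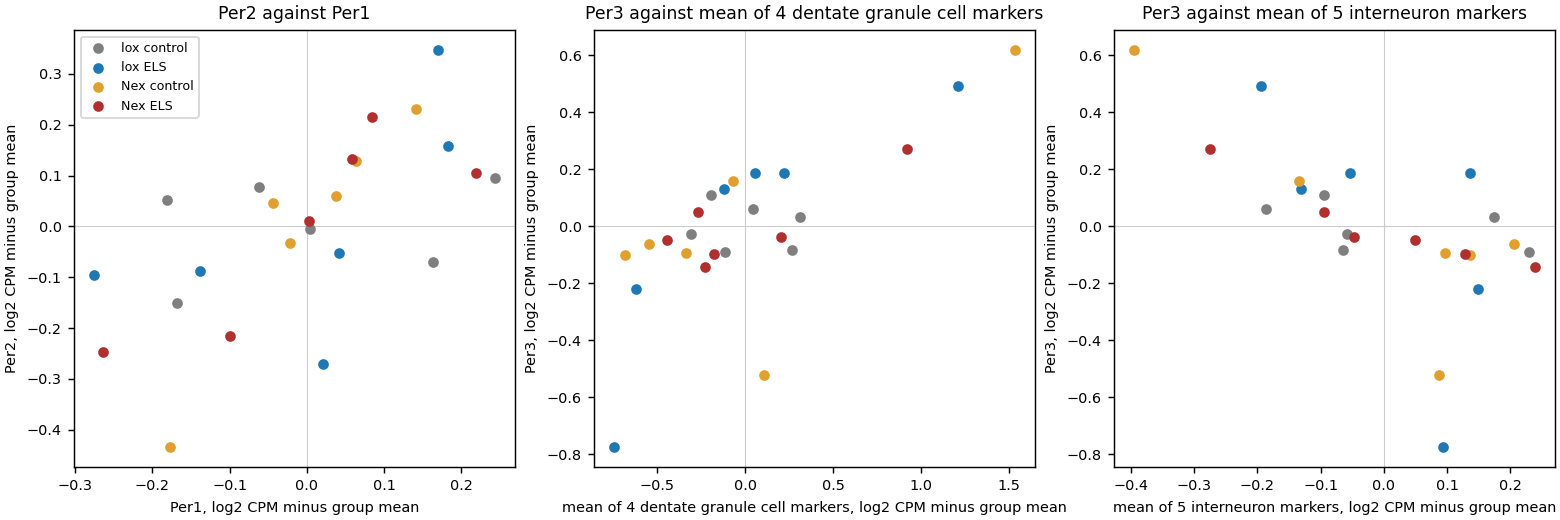
Per2 against Per1 (left), Per3 against the mean of the 4 dentate granule cell markers (middle) and Per3 against the mean of the 5 interneuron markers (right), each as log2 CPM minus the group mean, with one point per mouse coloured by group. r is 0.65 for Per1 with Per2, 0.73 for Per3 with the dentate and -0.65 for Per3 with the interneuron markers, with 2 mice far to the right in the middle panel.

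The genes whose pattern over the 24 mice was most like that of an output and of an activator gene were also listed. They were ranked by r of centred log2 CPM over all genes tested other than the 10 members. For Dbp the highest were E130012A19Rik (r = 0.77, rho = 0.67), Gm5424 (0.74, rho = 0.49), Mlip (0.73, rho = 0.73), Jph4 (0.72, rho = 0.73) and Plscr4 (0.72, rho = 0.52). The lowest were Lrp12 (-0.80, rho = -0.74), Acvr1c (-0.77, rho = -0.52) and Trak2 (-0.75, rho = -0.53). Arntl was most like Chst5 (r = 0.81, rho = 0.81), Sh2d5 (0.79, rho = 0.77), Grasp (0.78, rho = 0.79), March4 (0.77, rho = 0.80) and Lix1 (0.77, rho = 0.80). It was least like Ctbp2 (-0.82, rho = -0.80), Mapre2 (-0.77, rho = -0.74) and Sgsm1 (-0.77, rho = -0.76). The members could not appear in these lists, and none of the 18 other listed clock genes was among these 16. All values come from the same libraries and are a description, since each list holds the extremes of the 16209 genes tested, members aside.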

How the data were processed

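The authors sequenced RNA from hippocampal punches of 24 female mice and deposited raw read counts per gene, without normalization or a filter. Per the labels and methods, read pairs were aligned with HISAT2 2.0.5 and counted with featureCounts 1.5.0-p3. Genome build, annotation and strand setting are not given in the sources used here. Groups came from the sample labels, with 6 mice each, and the labels give no batch or litter. The members and gene lists were chosen with earlier results of these data known. A gene was tested if all 6 mice of some group had 10 or more counts. edgeR 4.0.16 (TMM, quasi-likelihood test) was fitted in R 4.3.3 to 4 group means and 5 surrogate variables (svaseq, sva 3.50.0), with Benjamini-Hochberg adjustment over all genes. On simulated counts this recovered 172 of 200 genes changed by 1 log2 unit for ELS in Fkbp5lox/lox mice, with 1 false call. The simulation needed 0 surrogate variables. Its change was larger than the largest fitted difference of a member, -0.36 (Dbp, interaction), so it gives no rate of recovery for differences of that size. DESeq2 1.42.0, other normalizations, filters and mice left out were alternatives. Log2 CPM used a prior count of 2. All members were named; of the functional lists, each called gene or otherwise the 2 with the smallest p; and for likeness the 5 highest and 3 lowest r. Exact and permutation tests used scipy 1.17.1 and numpy 2.4.6. Positions came from GENCODE M21 by gene identifier.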

Additional observations from a re-analysis of the deposited data

Results flagged for a closer look

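Of 40 combinations of member and group, 5 held a mouse that stood apart by Dixon's test at 95%, and chance flags about 1 in 20 groups. In Fkbp5Nex controls, Clock was at 83.6 CPM in mouse 52 (nearest mouse 105 CPM), Cry1 at 13.7 CPM in mouse 42 (nearest 10.9 CPM) and Cry2 at 120.1 CPM in mouse 54 (nearest 111 CPM). In Fkbp5lox/lox ELS mice, Cry2 was at 99.1 CPM in mouse 72 (nearest 112 CPM). In Fkbp5Nex ELS mice, Dbp was at 28.1 CPM in mouse 58 (nearest 21.0 CPM). No member moved up in every mouse of one genotype or rearing and down in every mouse of the other.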

How the results depend on the processing

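No paired or litter-wise analysis was possible, because the mouse numbers are unique across groups and the labels give no litter. In the paper, each dam and its litter were placed together under ELS or control rearing, so mice of a group may be littermates. All tests treated mice as independent, and the effect of a shared litter was not tested. The count of members called was 0 in each comparison under every alternative, leaving out each mouse included (range 0 to 0). It was also 0 at a false discovery rate of 0.05, where edgeR called between 0% and 0.185% of all genes by comparison. Leaving out 1 mouse moved the Nr1d2 difference for ELS in Fkbp5lox/lox mice between -0.21 and -0.11 (unadjusted p below 0.05 in 23 of 24 fits), for genotype under control rearing between -0.20 and -0.07 (21 of 24) and for the interaction between -0.24 and -0.10 (15 of 24). Leaving out 1 mouse changed the sign of 32 of the 50 differences in at least 1 fit. Under the other alternatives 23 values, from 16 of the 50 differences, changed sign, none with a call. Without surrogate variables these were, for ELS in Fkbp5lox/lox mice, Cry1 0.041, Per1 0.046 and Per3 0.029; for ELS in Fkbp5Nex mice Per1 0.064, Clock 0.063, Arntl -0.0497 and Per2 0.0055; for genotype after ELS Per3 -0.10; and for the interaction Cry1 0.087, Nr1d1 -0.0504, Per3 0.0013, Clock -0.089, Per2 -0.023 and Cry2 0.018. DESeq2 size factors gave Cry1 0.00075 for ELS in Fkbp5Nex mice. filterByExpr gave Per1 0.0076 for the same and Nr1d1 -0.0102 for the interaction. Without a filter, Per1 was 0.022 for ELS in Fkbp5Nex mice, Per2 -0.0016 for genotype after ELS, and for the interaction Nr1d1 was -0.015 and Clock -0.024. With only the 12 mice compared, Per1 was 0.035 and Clock 0.016 for ELS in Fkbp5Nex mice.

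With surrogate variables regressed out, 3 pairs of members passed, r of Per1 with Per2 fell to 0.48, r of Cry2 with Dbp was 0.63, and r changed sign for Arntl with Per1 (0.13), Clock (0.15), Cry2 (0.032) and Nr1d1 (0.19) and for Per1 with Mt2 (0.11), Fkbp5 (-0.068) and Npas4 (0.22). Without centring on group means, 2 pairs passed (Per1 with Per2 and with Cry2) and 1 Per1 relation (Nr4a1, r = 0.60), and r of Per1 changed sign for Tsc22d3 (0.061), Mt2 (0.0083) and Npas4 (0.11). The cause was not tested. Leaving out 1 mouse, r of Per1 with Per2 lay between 0.60 and 0.70.

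With 6 mice a group, the 95% intervals reached ± 0.46 log2 units for Dbp and ± 0.10 at the narrowest for Cry2. These widths do not give the smallest change that could be called after adjustment. Nr1d2 for ELS in Fkbp5lox/lox mice, at -0.18, had an interval without 0 and an adjusted p of 0.938 (edgeR). Small changes of any member could thus go uncalled.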
